A study of Mus musculus with 16 samples.

Results

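Transcripts of 10 genes that mark enteroendocrine cells, the scattered hormone-secreting cells of the gut lining, were followed in caecal epithelium of mice given ampicillin and tributyrin. They were the peptide hormones Insl5, Pyy, Gcg, Sct, Cck and Sst, the serotonin-making enzyme Tph1, the granule proteins Chga and Chgb, and the transcription factor Neurod1. The 10 genes were taken by symbol from the 24091 genes of the deposited expression table, by a rule that sets no threshold on their values. They were chosen with earlier results of these data known. Each symbol matched 1 row, and all 10 passed the filter on low values, a mean of at least 1 TPM (a length-scaled share of all transcripts in a library) over the 9 RNA libraries. Insl5 and Neurod1 passed it through the ampicillin groups only, since their means in the vehicle group were 0.261 and 0.746 TPM.

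Enteroendocrine cells arise from crypt stem cells under the transcription factor Neurog3, followed by Neurod1, and store their products in dense-core granules with the chromogranins Chga and Chgb. Classes of these cells are named by their hormones: L cells make the proglucagon peptides (Gcg) and peptide YY (Pyy) and, in the large intestine, also insulin-like peptide 5 (Insl5), D cells make somatostatin (Sst), enterochromaffin cells make serotonin through Tph1, and cholecystokinin (Cck) and secretin (Sct) mark further classes. In the caecum and colon these cells sense short-chain fatty acids such as butyrate, which gut bacteria make from fibre. Ampicillin removes many of those bacteria, and tributyrin is a triglyceride from which butyrate is released.

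The series holds 16 samples of caecal epithelial cells of C57BL/6 mice, whose age was not given, and the 9 RNA libraries were used. Every mouse drank water with 10 g/L of the sweetener Splenda for 7 days. The vehicle group received nothing else in the water and a mock gavage of 25% glycerol, the ampicillin group received 1 g/L ampicillin and the same mock gavage, and the tributyrin group received 1 g/L ampicillin and a gavage of tributyrin, with harvest 6 h after the gavage. Each group had 3 libraries, and the labels do not say that these came from separate animals, so the p-values measure only the spread between libraries, which may be technical. Because tributyrin was given only on top of ampicillin, its effect without the antibiotic cannot be read here. The labels name the cells as epithelial, with no sort for endocrine cells, so these transcripts were measured as a small part of a bulk sample, in which fewer endocrine cells and less RNA per cell cannot be told apart.

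The libraries were mostly epithelium. The colonocyte list of 16 genes summed to between 39600 and 46500 TPM, against 0.639 to 1.59 TPM for 13 genes of enteric neurons, among which Vip and Gap43 were at 0 in every library, and 0.465 to 0.995 TPM for 8 genes of pancreatic islets, of which Ins1, Ins2 and G6pc2 were at 0. The 6 genes of enteric glia summed to at most 1.49 TPM, with Sox10 at 0. Tissues outside the gut epithelium that make the same hormones were therefore low in every library by these markers. The neuron sum differed between groups. It was 0.639 to 0.817 TPM with vehicle, 1.02 to 1.47 TPM with ampicillin and 1.4 to 1.59 TPM with tributyrin. The glia sum was 0.915 to 1.12, 1.11 to 1.27 and 1.31 to 1.49 TPM in the same order. The part of these tissues in the hormone and neuropeptide changes was not tested. Vehicle replicate 2 had the highest small intestinal sum, 2490 TPM over 17 genes, against 1770 and 1830 TPM in the other vehicle libraries. This sum was 1740 to 1950 TPM with ampicillin and 1730 to 1770 TPM with tributyrin. Fabp2 made up most of it, at 1510 to 1860 TPM. Fabp6 was at 12.3, 345 and 53.4 TPM in vehicle replicates 1, 2 and 3, and at 1.84 to 4.46 TPM in the rest. Apoa1 was at 2.3, 75.2 and 9.19 TPM, and at 0.309 to 0.591 TPM in the rest. Leaving out vehicle replicate 2 therefore does not remove the difference in Fabp6 and Apoa1. Of 9 tested genes of this list, 4 rose and 3 fell with ampicillin, beside 11.0% of all tested genes that rose and 10.2% that fell. Among the members, tributyrin replicate 2 was the highest of its group for 8 of 10 genes and tributyrin replicate 3 the lowest for 9 of 10. Member results without vehicle replicate 2, tributyrin replicate 2 and tributyrin replicate 3 are given with the comparisons they bear on.

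Sequence upstream of the transcription start is shown for the hormones with the largest changes and for Tph1, so that the matches described next can be seen in place. The windows are the 250 bases before the outermost start that RefSeq gives for build GRCm38.p6, the same build as mm10, written 5′ to 3′ on the strand of the gene, which is the minus strand for all of them. For Sst only the 30 bases around its cAMP response element are given. Capitals mark a match, on either strand, to TGACG (the core of the cAMP response element), CAGATG (an E-box bound by neurogenic factors) or TATAAA, the TATA box.
Insl5 (chr4:103027272-103027521): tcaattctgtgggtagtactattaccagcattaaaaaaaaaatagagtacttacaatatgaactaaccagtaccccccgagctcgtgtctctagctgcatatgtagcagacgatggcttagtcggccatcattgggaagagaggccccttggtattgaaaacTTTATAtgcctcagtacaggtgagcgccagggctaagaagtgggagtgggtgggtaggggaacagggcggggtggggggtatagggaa
Cck (chr9:121495695-121495944): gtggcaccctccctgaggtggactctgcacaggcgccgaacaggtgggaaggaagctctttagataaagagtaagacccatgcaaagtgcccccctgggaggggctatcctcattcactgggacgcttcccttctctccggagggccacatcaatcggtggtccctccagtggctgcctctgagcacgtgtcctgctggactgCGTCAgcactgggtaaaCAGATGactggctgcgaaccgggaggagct
Pyy (chr11:102107833-102108082): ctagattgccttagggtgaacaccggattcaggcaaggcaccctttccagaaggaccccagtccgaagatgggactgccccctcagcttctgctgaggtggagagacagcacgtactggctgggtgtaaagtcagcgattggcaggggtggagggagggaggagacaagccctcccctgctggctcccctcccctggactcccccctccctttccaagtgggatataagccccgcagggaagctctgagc
Tph1 (chr7:46672538-46672787): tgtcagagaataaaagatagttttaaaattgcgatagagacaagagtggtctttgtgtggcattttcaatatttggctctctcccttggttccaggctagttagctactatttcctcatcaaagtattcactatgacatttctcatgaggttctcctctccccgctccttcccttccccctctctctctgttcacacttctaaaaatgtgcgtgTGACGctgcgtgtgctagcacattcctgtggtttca
Sst (chr16:23890874-23890903): gcctccttggcTGACGTCAgagagagagtt

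The whole palindromic cAMP response element TGACGTCA, which contains TGACG on both strands, stood upstream of Sst and Chgb, and in 1.55% of the 32851 windows of this length in the RefSeq table. In Sst it lay 48 to 41 bases before the start. The core TGACG was found for Cck, Sst, Tph1, Chga and Chgb, against 17.8% of all windows, and lay 36 to 32 bases before the outer start of Tph1 and, on the opposite strand, 47 to 43 bases before that of Cck. The E-box CAGATG was found for Insl5 (at its inner start), Cck, Gcg and Sct, against 14.4% of all windows, and the TATA box for Insl5, Gcg and Sct, against 12.4%. For Insl5 the match in the printed outer window, TTTATA, was on the opposite strand, 88 to 83 bases before the start. The same-strand TATAAA lay 49 to 44 bases before the inner start, whose window is not printed. The general E-box CANNTG, which includes CAGATG, was upstream of every member but Tph1, and in 66.2% of all windows. Of the 13 member windows searched, 2 each belong to Insl5, Tph1 and Pyy. These matches describe letters and not bound sites.

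Ampicillin reordered the hormones. Against vehicle, 3 members rose (Insl5, Cck and Sst), 3 fell (Pyy, Sct and Tph1) and 4 did not pass the test (Gcg, Chga, Chgb and Neurod1). The test was limma on log2(TPM + 1), fitted to all 12155 genes that passed the filter, and genes with a p under 0.05 after Benjamini-Hochberg adjustment counted as called. Across all genes 11.0% were called higher and 10.2% lower in this comparison, beside 3 and 3 of the 10 members. The members were chosen with earlier results of these data known. Their counts are therefore no evidence of an excess over the whole table, and none was tested. The median log2 fold change was 0.089 over the members and 0.024 over all genes.

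**Figure D1:**
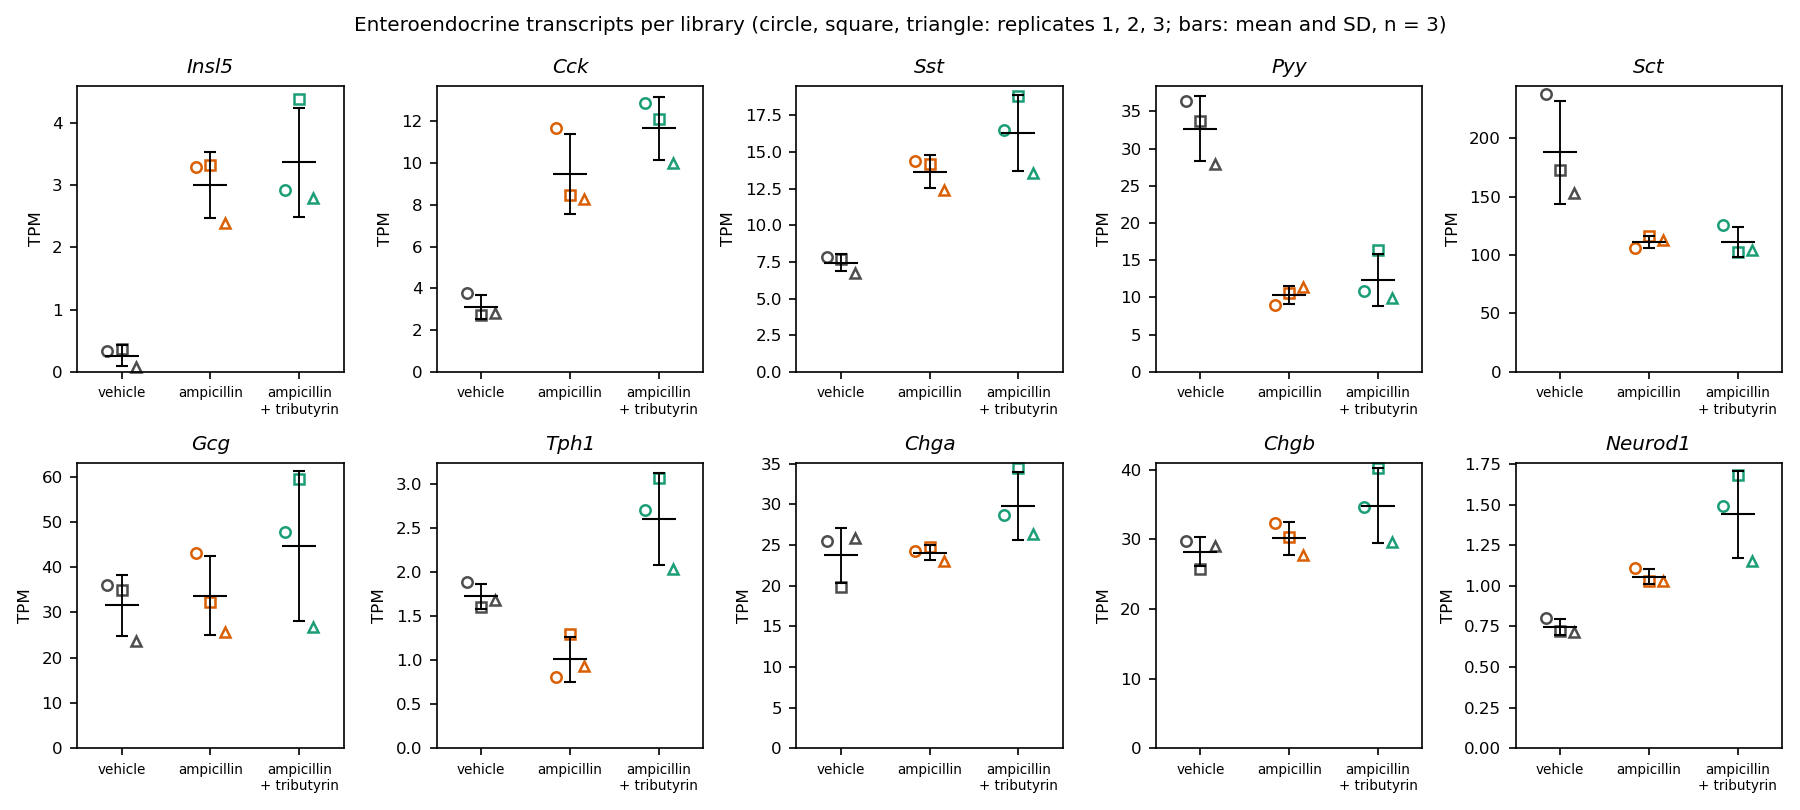
TPM of the 10 genes in each of the 9 RNA libraries (circle, square and triangle are replicates 1, 2 and 3), with the mean and SD of each group (n = 3) as a bar on a linear axis that starts at 0. Insl5, Cck and Sst are low in all 3 vehicle libraries, Pyy and Sct are high in them, and Tph1 is lowest in the ampicillin group.

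Insl5 encodes insulin-like peptide 5, a hormone of large intestinal L cells that acts on the receptor Rxfp4 (gene ID 23919, chr4:103017872-103027271). Its level was 0.336, 0.372 and 0.0745 TPM in the vehicle libraries, 3.29, 3.32 and 2.39 TPM with ampicillin, and 2.92, 4.38 and 2.80 TPM with ampicillin and tributyrin. The 6 ampicillin libraries all lay above the 3 vehicle libraries, and the ampicillin and tributyrin groups overlapped. With ampicillin the mean rose from 0.261 ± 0.162 to 3.0 ± 0.531 TPM (SD, n = 3), a ratio of means of 11.5, and the log2 fold change on the TPM + 1 scale was 1.67 ± 0.17 (SE, adjusted p = 0.000335, limma). This scale understates changes of low transcripts: with a pseudocount of 0.1 the same difference was 3.22, and with 5 it was 0.60, each still called. Since the vehicle level is far below 1 TPM, the size of the rise is less certain than its direction.

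Cck encodes cholecystokinin, released after a meal to contract the gallbladder and slow gastric emptying (gene ID 12424, chr9:121489824-121495694). The vehicle libraries held 3.76, 2.71 and 2.84 TPM, the ampicillin libraries 11.7, 8.46 and 8.28 TPM, and the tributyrin libraries 12.9, 12.1 and 10.0 TPM. Every ampicillin-treated library exceeded every vehicle library. The log2 fold change with ampicillin was 1.35 ± 0.15 (SE, adjusted p = 0.00052, limma), with group means of 3.10 ± 0.569 and 9.49 ± 1.95 TPM (SD, n = 3), and with a pseudocount of 5 it was 0.83. The gene overlaps the long non-coding RNA Gm38661, which has no row in the deposited table, and as the strand setting of the quantification is not given in the sources used here, reads of the pair cannot be told apart.

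Sst encodes somatostatin, the inhibitory peptide of D cells, which restrains neighbouring endocrine cells (gene ID 20604, chr16:23889573-23891342). It stood at 7.84, 7.69 and 6.77 TPM with vehicle, 14.4, 14.2 and 12.4 TPM with ampicillin, and 16.5, 18.8 and 13.6 TPM with tributyrin. Vehicle libraries were the 3 lowest, and the other 2 groups overlapped. The rise with ampicillin was 0.80 ± 0.11 on the log2 scale (SE, adjusted p = 0.00165, limma), from a mean of 7.43 ± 0.576 to 13.6 ± 1.09 TPM (SD, n = 3).

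Pyy encodes peptide YY, which slows transit and lowers appetite (gene ID 217212, chr11:102106676-102107832). Vehicle libraries held 36.4, 33.7 and 27.9 TPM, ampicillin libraries 9.01, 10.6 and 11.4 TPM, and tributyrin libraries 10.8, 16.4 and 9.90 TPM. The lowest vehicle library was above the highest of the 6 ampicillin-treated ones. Pyy fell by 1.57 on the log2 scale with ampicillin (SE 0.18, adjusted p = 0.000539, limma), from 32.7 ± 4.32 to 10.3 ± 1.2 TPM (SD, n = 3), the largest fall among the 10 genes.

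Sct encodes secretin, which drives bicarbonate secretion, and was the most abundant of the hormones in every group (gene ID 20287, chr7:141278329-141279174). Its values were 238, 173 and 153 TPM with vehicle, 106, 116 and 113 TPM with ampicillin, and 126, 103 and 104 TPM with tributyrin. Vehicle replicate 1 was far above the other 2 of its group, and all 3 vehicle libraries were above the rest. Sct fell with ampicillin by 0.72 on the log2 scale (SE 0.15, adjusted p = 0.0106, limma), from 188 ± 44.6 to 112 ± 5.59 TPM (SD, n = 3), and it was called in each of the 20 alternatives, with adjusted p between 0.00293 and 0.0401.

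Gcg encodes proglucagon, the source of the glucagon-like peptides of L cells (gene ID 14526, chr2:62474530-62483653). It was measured at 36.0, 35.0 and 23.8 TPM with vehicle, 43.1, 32.4 and 25.7 TPM with ampicillin, and 47.7, 59.5 and 26.7 TPM with tributyrin. The 3 groups overlapped, and within each the third library was the lowest. The log2 difference with ampicillin was 0.08 ± 0.30 (SE), with a 95% confidence interval from -0.61 to 0.77 and an adjusted p of 0.884 (limma). The interval therefore allows a change of either sign that is smaller than the fall of Pyy.

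Pyy and Gcg are both L-cell hormones, and their ratio was examined in each library, a choice made after the values were seen. It was 1.01, 0.963 and 1.17 with vehicle, 0.209, 0.326 and 0.444 with ampicillin, and 0.226, 0.276 and 0.371 with tributyrin. Near parity in each vehicle library, the ratio was below 0.5 in each of the 6 ampicillin-treated libraries. On the scale log2((Pyy + 1)/(Gcg + 1)) in TPM, the ampicillin group differed from vehicle by -1.65 and the tributyrin group by -1.79 (exact permutation test, two-sided, p = 0.1 for each, the smallest that 3 against 3 allows, adjusted p = 0.188 over 30 tests). The ratio of Insl5 to Gcg moved the other way, from a mean of 0.00769 ± 0.00401 with vehicle to 0.0907 ± 0.0132 with ampicillin and 0.0799 ± 0.0225 with tributyrin (SD, n = 3). With 1 TPM added to both hormones, which shrinks a ratio with so low a numerator, its log2 differences from vehicle were 1.58 and 1.35, with the same exact permutation p of 0.1.

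Tph1 encodes tryptophan hydroxylase 1, the rate-limiting enzyme of serotonin synthesis in enterochromaffin cells (gene ID 21990, chr7:46644641-46672537). Levels were 1.89, 1.61 and 1.68 TPM with vehicle, 0.809, 1.30 and 0.931 TPM with ampicillin, and 2.71, 3.07 and 2.04 TPM with tributyrin. The 3 groups did not overlap, with ampicillin lowest and tributyrin highest. The fall with ampicillin was at the edge of the threshold, at -0.44 ± 0.14 on the log2 scale (SE, adjusted p = 0.0499, limma), from 1.72 ± 0.147 to 1.01 ± 0.254 TPM (SD, n = 3). It lost the call in 9 of 19 alternatives, among them those without any single vehicle library, without ampicillin replicate 1 or 3 and without tributyrin replicate 1, with adjusted p up to 0.149.

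The granins, which mark endocrine cells of nearly every class, stayed close to their vehicle levels with ampicillin. Chga (gene ID 12652, chr12:102554941-102565027) was at 25.5, 19.8 and 25.8 TPM with vehicle and 24.3, 24.8 and 23.0 TPM with ampicillin, a log2 difference of 0.03 ± 0.12 (SE, 95% confidence interval -0.25 to 0.30, adjusted p = 0.906, limma). Chgb (gene ID 12653, chr2:132781642-132795079) was at 29.7, 25.8 and 29.1 TPM and at 32.4, 30.4 and 27.7 TPM, a difference of 0.09 ± 0.11 (SE, 95% confidence interval -0.16 to 0.35, adjusted p = 0.603). For both genes the groups overlapped. Neurod1, a basic helix-loop-helix factor of the endocrine lineage (gene ID 18012, chr2:79452637-79456636), was at 0.804, 0.722 and 0.714 TPM with vehicle and 1.11, 1.03 and 1.03 TPM with ampicillin. These groups did not overlap, yet the log2 difference of 0.24 ± 0.11 missed the threshold (SE, adjusted p = 0.161).

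Without vehicle replicate 2, the library with the high small intestinal sum, the changes with ampicillin were 1.73 for Insl5, 1.28 for Cck, 0.82 for Sst, -1.54 for Pyy and -0.77 for Sct on the log2 scale, all still called. Tph1, at -0.47, was not (adjusted p = 0.0814, limma). Markers of other secretory cells moved in the same comparison: 5 of 13 goblet genes and 5 of 9 tested Paneth and deep crypt secretory genes fell and none rose, beside the 10.2% of all genes called lower. Without vehicle replicate 2 the counts were 5 and 4, with Ang4 no longer called. Defa30 was at 0.931, 18.7 and 5.81 TPM in vehicle replicates 1, 2 and 3, and at 0 in the rest. Itln1 was at 1.05, 4.41 and 1.94 TPM, against 0.353 to 0.57 TPM in the rest. Vehicle replicate 3 was above replicate 1 for both, so leaving out replicate 2 does not make the vehicle group even. Reg4 and Mptx1 were highest in vehicle replicate 1. For the Paneth and deep crypt secretory list, the sum was 2860 to 3430 TPM with vehicle and 1390 to 1640 TPM with ampicillin, mostly from Reg4. Whether the change in those markers has a part in the hormone changes was not tested.

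To set the hormones against the endocrine compartment, each was divided by the sum of Chga and Chgb in its own library. That sum was 51.9 ± 5.46 TPM with vehicle, 54.2 ± 3.17 TPM with ampicillin and 64.6 ± 9.51 TPM with tributyrin (SD, n = 3). Sst made up 0.142, 0.169 and 0.123 of the granin sum with vehicle, 0.253, 0.257 and 0.245 with ampicillin, and 0.261, 0.252 and 0.244 with tributyrin. Relative to the granins, the 6 ampicillin-treated libraries spanned a narrow range and the tributyrin group no longer lay higher than the ampicillin group.

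Pyy stood at 0.660, 0.740 and 0.508 of the granin sum with vehicle, 0.159, 0.191 and 0.225 with ampicillin, and 0.170, 0.220 and 0.177 with tributyrin. Here too the ampicillin and tributyrin groups overlapped, below all vehicle libraries. Cck had mean ratios of 0.0598 ± 0.00822, 0.175 ± 0.0287 and 0.182 ± 0.0208, and Insl5 of 0.0052 ± 0.00349, 0.0551 ± 0.00696 and 0.0516 ± 0.00643 (SD, n = 3). Secretin, above the granins in all libraries, had ratios of 3.63 ± 0.78, 2.07 ± 0.192 and 1.74 ± 0.32. The ratios were compared as log2((TPM + 1)/(granin TPM + 1)), a scale that understates the change of low transcripts such as Insl5 and Neurod1. On it, the ampicillin group differed from vehicle by 1.60 for Insl5, 1.28 for Cck, 0.73 for Sst, -1.64 for Pyy, -0.79 for Sct and -0.51 for Tph1, each with complete separation of the libraries and an exact permutation p of 0.1 (two-sided, adjusted p = 0.188 over 30 tests). That is the smallest p that 3 against 3 allows, so no ratio could pass the threshold. Gcg differed by 0.02 (exact p = 1.0) and Neurod1 by 0.17 (exact p = 0.3). Without the added 1 TPM, the Neurod1 ratios did not overlap: 0.0146, 0.0158 and 0.013 with vehicle, 0.0195, 0.0187 and 0.0203 with ampicillin. Between tributyrin and ampicillin the Tph1 ratio differed by 0.59 (exact p = 0.1), and those of Sst, Cck and Pyy by -0.01, 0.04 and -0.03 (exact p = 0.9, 0.8 and 0.9).

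**Figure D2:**
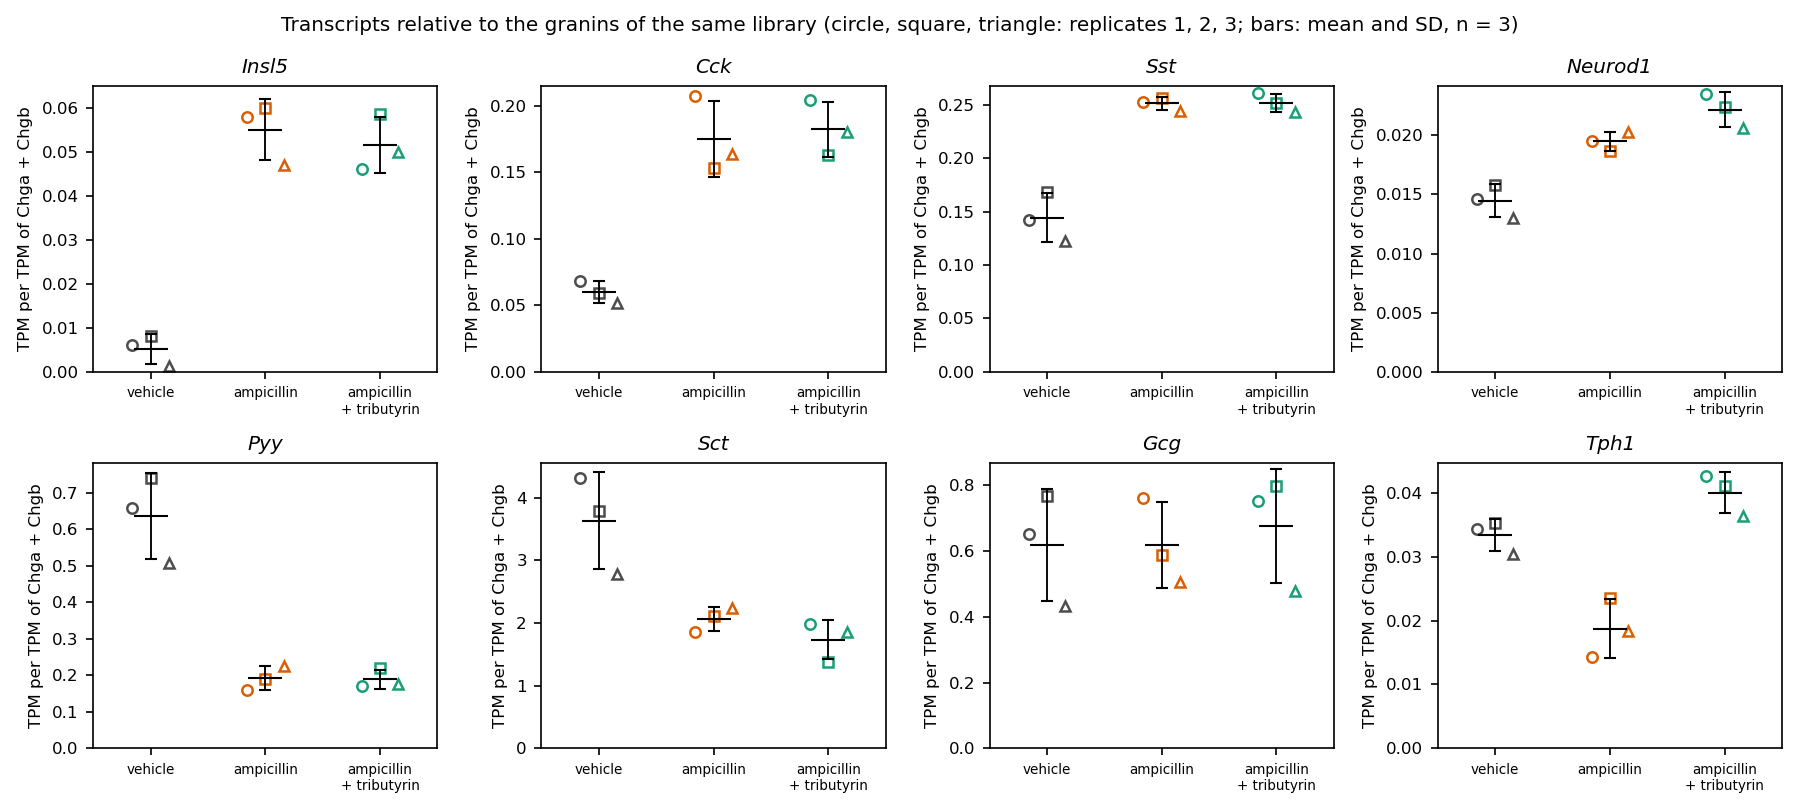
TPM of 8 genes divided by the summed TPM of Chga and Chgb in the same library, on linear axes from 0, with replicates as symbols and the mean and SD of each group (n = 3) as bars. Sst sits between 0.244 and 0.261 in all 6 ampicillin-treated libraries and at 0.123 to 0.169 with vehicle, Pyy is at 0.508 to 0.740 with vehicle and 0.159 to 0.225 in the rest, and the 3 groups overlap for Gcg.

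As TPM is scaled by transcript length, the hormones could also be given as shares of their common sum. The 6 peptide hormones summed to 263 ± 54.8 TPM with vehicle, 182 ± 7.39 TPM with ampicillin and 199 ± 28.1 TPM with tributyrin (SD, n = 3). Secretin alone was 71.2% ± 2.69 of the sum with vehicle, 61.5% ± 4.60 with ampicillin and 56.1% ± 7.28 with tributyrin. Among the other 5 hormones Pyy and Gcg were level with vehicle, at 43.7% ± 1.59 and 41.8% ± 2.74. With ampicillin Pyy was at 15.1% ± 3.95 and Gcg at 47.5% ± 5.12, while Sst was at 19.6% ± 1.71, Cck at 13.5% ± 1.1 and Insl5 at 4.28% ± 0.468. Their vehicle shares had been 10.0% ± 0.909, 4.16% ± 0.654 and 0.329% ± 0.183. The summed level of these 5 was 75.1 ± 12.1 TPM with vehicle and 70.2 ± 10.8 TPM with ampicillin, so the sum moved by less than its spread while its parts changed.

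**Figure D3:**
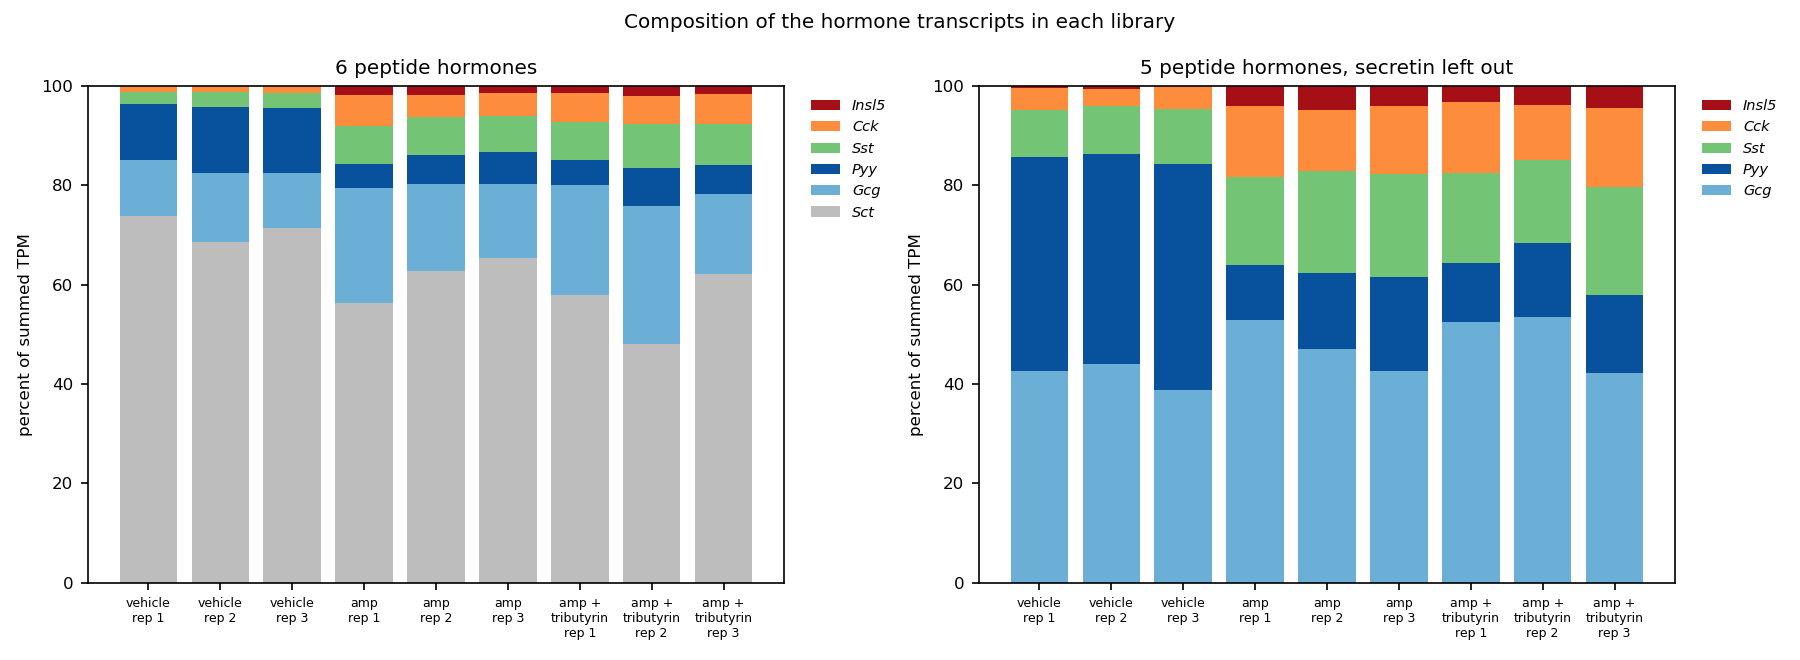
Stacked bars of each hormone's percent of the summed TPM of the 6 peptide hormones (left) and of the 5 without secretin (right), 1 bar per library. Pyy takes 42.4% to 45.5% of the right-hand bars with vehicle and 11.1% to 18.9% in the 6 ampicillin-treated libraries, where the Sst, Cck and Insl5 segments are wider.

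The order of the 10 genes by mean level changed accordingly. With vehicle it ran Sct, Pyy, Gcg, Chgb, Chga, Sst, Cck, Tph1, Neurod1 and Insl5, and the neighbours from Pyy to Chga overlapped over libraries. With ampicillin Pyy stood sixth, at 10.3 TPM, behind Sst, and it overlapped Cck at 9.49 TPM, while Insl5 stood eighth at 3.0 TPM, above Neurod1 and Tph1, which overlapped each other at 1.06 and 1.01 TPM. With tributyrin the order was that of the ampicillin group, except that Tph1, at 2.60 TPM, lay above Neurod1 at 1.44 TPM. In this group Insl5 and Tph1 overlapped, as did Gcg with Chgb, Chgb with Chga, Sst with Pyy, and Pyy with Cck.

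A tributyrin gavage on top of ampicillin changed 1 member in the test. Tph1 rose and the other 9 did not pass, where 15.6% of all genes were called higher and 7.54% lower. The Tph1 level went from 1.01 ± 0.254 to 2.60 ± 0.523 TPM (SD, n = 3), a log2 fold change of 0.84 ± 0.14 (SE, adjusted p = 0.00405, limma), and the lowest tributyrin library, at 2.04 TPM, was above the highest ampicillin library, at 1.30 TPM. The rise was called in all 19 alternatives that kept the gene, with adjusted p between 0.00113 and 0.0182, and was 0.74 without tributyrin replicate 2 (adjusted p = 0.0177). Its size depended on the pseudocount, at 1.28 with 0.1 and 0.34 with 5. The median log2 fold change was 0.24 over the members and 0.049 over all genes. The split of all called genes rests on the scaling: 1902 were higher and 917 lower as deposited, 1466 and 1647 after quantile normalization, and 1514 and 1512 after median of ratios scaling.

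Mast cells, which also make serotonin through Tph1, were followed by their markers in the same libraries. The 10 mast cell genes summed to 10.2 to 13.6 TPM with vehicle, 11.8 to 14.1 TPM with ampicillin and 10.9 to 19.6 TPM with tributyrin, none of them at 0 in every library. Kit, which caecal secretory cells express as well, made up most of that sum at a mean of 8.05 TPM over the 9 libraries. Its log2 difference between tributyrin and ampicillin was -0.21 ± 0.12 (SE, adjusted p = 0.226, limma). The mucosal mast cell protease Mcpt1 was at 2.30, 2.42 and 2.06 TPM with ampicillin and 4.06, 7.03 and 2.75 TPM with tributyrin (log2 difference 0.71 ± 0.28 SE, adjusted p = 0.104, limma), and Mcpt2 at 1.36, 1.96 and 1.56 against 3.43, 3.95 and 1.74 TPM (0.58 ± 0.23, adjusted p = 0.101). In the tributyrin group both proteases and Tph1 were highest in replicate 2 and lowest in replicate 3. The same held for Insl5, Pyy, Gcg, Sst, Chga, Chgb and Neurod1, so this order is not particular to mast cell genes and Tph1. The 10 measured genes of T and intraepithelial lymphocytes summed to 41.9 to 77.7 TPM with tributyrin and 23.0 to 39.3 TPM with ampicillin. The part of either cell type in the Tph1 result was not tested.

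The remaining members gave small positive differences with tributyrin, apart from Sct. Chga was at 28.7, 34.4 and 26.3 TPM with tributyrin, all above the ampicillin libraries, and the log2 difference was 0.29 ± 0.12 (SE, adjusted p = 0.112, limma). Chgb was at 34.6, 40.3 and 29.6 TPM, overlapping the ampicillin group (0.19 ± 0.11, adjusted p = 0.241). Neurod1 was at 1.49, 1.68 and 1.15 TPM, again without overlap (0.24 ± 0.11, adjusted p = 0.137).

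The hormones overlapped between the ampicillin and tributyrin groups. Their log2 differences were 0.12 for Insl5, 0.28 for Cck, 0.23 for Sst, 0.21 for Pyy, 0.35 for Gcg and -0.02 for Sct, with 95% confidence intervals that reached from -0.28 to 0.51 for Insl5, from -0.19 to 0.62 for Pyy and from -0.37 to 0.33 for Sct. The interval for Pyy leaves out a return to the vehicle level, which would need a rise of 1.57. Without tributyrin replicate 3, which was the lowest of its group for 9 of the 10 members, Sst (0.35, adjusted p = 0.034) and Neurod1 (0.33, adjusted p = 0.0328) were called as well. In that fit 3011 of 12155 genes were called, against 2819 with all libraries. Without tributyrin replicate 2, Sst was at 0.13 (adjusted p = 0.447, limma) and Neurod1 at 0.17 (adjusted p = 0.336). There Insl5 was at -0.045, Pyy at 0.0058 and Gcg at 0.11, and Tph1 alone was called.

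**Figure D4:**
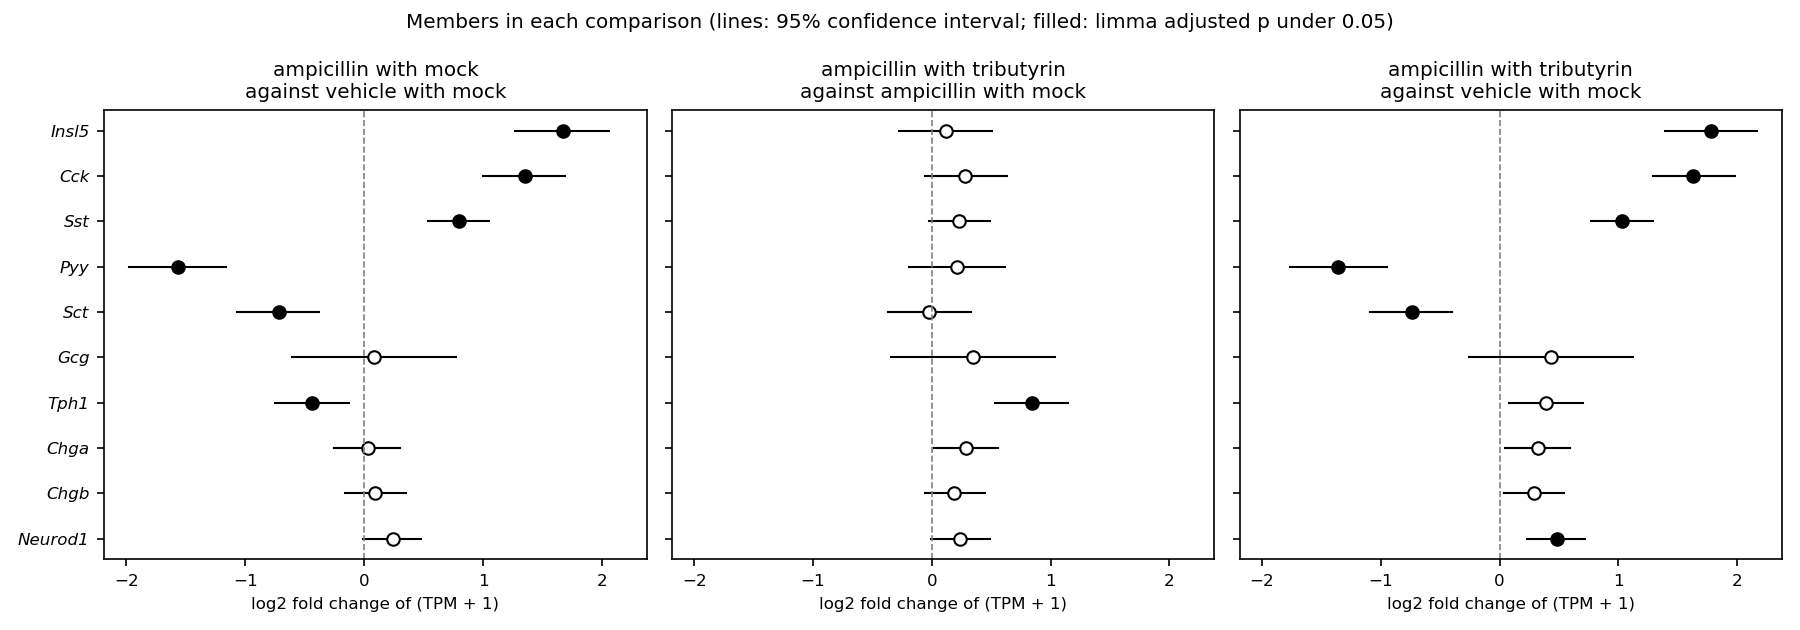
Log2 fold change of TPM + 1 for the 10 genes in the 3 comparisons, with 95% confidence intervals as lines and filled points where the limma adjusted p was under 0.05. Insl5, Cck, Sst, Pyy and Sct lie away from 0 in both comparisons with vehicle and near it in the comparison of tributyrin with mock gavage, where Tph1 alone is filled, at 0.84.

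Against vehicle, the ampicillin and tributyrin group had 4 members higher (Insl5, Cck, Sst and Neurod1), 2 lower (Pyy and Sct) and 4 that did not pass, beside 19.1% of all genes called higher and 9.21% lower. This comparison shares the vehicle libraries with the first and the tributyrin libraries with the second, so its values are set beside theirs and are no independent support. The log2 fold changes were 1.78 ± 0.17 for Insl5, 1.63 ± 0.15 for Cck and 1.03 ± 0.11 for Sst (SE, adjusted p = 0.00034, 0.000295 and 0.000592, limma). Pyy stood at -1.36 ± 0.18 and Sct at -0.74 ± 0.15 (adjusted p = 0.00135 and 0.00885). Neurod1 was higher at 0.48 ± 0.11 (adjusted p = 0.0129), from 0.746 ± 0.0498 to 1.44 ± 0.266 TPM (SD, n = 3), and no library of the groups overlapped.

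The other 4 members had positive differences from vehicle that missed the threshold with tributyrin. Tph1 was at 0.39 ± 0.14 (SE, adjusted p = 0.0609, limma), Chga at 0.32 ± 0.12 (adjusted p = 0.0789), Chgb at 0.29 ± 0.11 (adjusted p = 0.0859) and Gcg at 0.43 ± 0.30 (adjusted p = 0.312). Without tributyrin replicate 2 the same 6 members were called, with Neurod1 at 0.41 (adjusted p = 0.0442) and Sct at -0.69 (adjusted p = 0.0366) nearest the threshold. Leaving out tributyrin replicate 3 raised the count of called members from 6 to 9, adding Tph1, Chga and Chgb. That library was the lowest of its group for 9 of the 10 members. Over the whole table, leaving it out raised the genes called from 3444 to 3786 of 12155. The split of all called genes was 2325 higher and 1119 lower as deposited, 1683 and 1663 after quantile normalization, and 1564 and 1757 after median of ratios scaling.

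Other genes linked to endocrine cells, though not all limited to them, were taken from lists of hormones, regulators, granule proteins and receptors. These lists do not include the 10 members. Among the other gut hormones and neuropeptides, 5 of 16 in the table passed the filter. With ampicillin 3 rose and none fell, beside 11.0% of all genes called higher and 10.2% lower (median log2 0.68, against 0.024 over all genes). Penk, the enkephalin precursor, rose by 1.61 ± 0.27 (SE, adjusted p = 0.00393, limma), from 1.84, 0.589 and 1.81 TPM to 5.34, 4.86 and 8.78 TPM. Tac1, the substance P precursor of enterochromaffin cells, rose by 0.68 ± 0.12 (adjusted p = 0.0044), and Ghrl, which encodes ghrelin, by 0.93 ± 0.25 (adjusted p = 0.0321). The ghrelin call was lost in 10 of 19 alternatives, including those without any 1 of the vehicle libraries and without ampicillin replicate 1 or 3. Nts, which encodes neurotensin, rose with tributyrin by 0.62 ± 0.17 over ampicillin alone (adjusted p = 0.0348), a call lost in 9 of 20 alternatives, among them those without vehicle replicate 1 or 3, ampicillin replicate 2 or 3, or tributyrin replicate 1 or 2. Gast, Npy and Vip were listed at 0 in every library.

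Of 20 endocrine transcription factors 6 passed the filter. Neurog3, the factor that commits progenitors to the endocrine fate, rose with ampicillin from 1.43, 1.33 and 1.24 TPM to 2.48, 2.10 and 1.94 TPM (log2 0.44 ± 0.10 SE, adjusted p = 0.015, limma) and was at 2.70, 2.78 and 2.23 TPM with tributyrin. All 6 ampicillin-treated libraries were above the vehicle ones, though the rise missed the threshold when vehicle replicate 3 was left out (adjusted p = 0.0548) and when ampicillin replicate 1 was (adjusted p = 0.0577). Mnx1, a homeobox factor of enterochromaffin cells, was, like Tph1, lowest in the ampicillin group: 4.52, 3.68 and 3.26 TPM with vehicle, 1.68, 1.86 and 2.29 TPM with ampicillin, and 2.80, 3.99 and 3.55 TPM with tributyrin. It fell with ampicillin by 0.71 on the log2 scale (SE 0.14, adjusted p = 0.00751) and rose with tributyrin by 0.59 ± 0.14 (adjusted p = 0.0172). The rise was lost after quantile normalization and without ampicillin replicate 1 or 2 or tributyrin replicate 2, with adjusted p up to 0.0635. Foxa1, Foxa2 and Insm1 were not called in either of these comparisons. Of other genes linked to enterochromaffin cells or serotonin, Tac1 rose by 0.68, Gch1 by 0.53 and Slc18a1 by 0.37 with ampicillin. Maob fell by 0.18.

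The serotonin list held 8 tested genes besides Tph1. Slc6a4, the transporter by which enterocytes take up serotonin, rose with tributyrin from 4.09, 3.86 and 3.24 TPM to 6.27, 7.18 and 5.63 TPM (log2 0.64 ± 0.12 SE, adjusted p = 0.00714, limma), in each of 19 alternatives. The degrading enzyme Maob rose with it, by 0.28 ± 0.042 (adjusted p = 0.00305). With ampicillin Gch1, which makes the cofactor of Tph1, rose by 0.53 ± 0.13 (adjusted p = 0.0187) and the vesicle transporter Slc18a1 by 0.37 ± 0.092 (adjusted p = 0.0214), each lost in 4 of 19 alternatives, all of them leaving out 1 vehicle or ampicillin library, and Maob fell by 0.18, a call lost without vehicle replicate 3 or ampicillin replicate 1 or 2. Ddc, the second enzyme of the pathway, was at 69.5 ± 2.46 TPM with ampicillin and 69.8 ± 8.31 TPM with tributyrin (SD, n = 3) and was called in neither comparison.

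Of 15 tested granule and secretion genes, 1 rose and 3 fell with ampicillin, beside 11.0% and 10.2% of all genes. With tributyrin over ampicillin 3 rose and 2 fell, beside 15.6% and 7.54%. The single rise with ampicillin, of Bex2, was lost in 9 of 19 alternatives, among them those without vehicle replicate 2 or 3, ampicillin replicate 1 or 2, or tributyrin replicate 1 or 3. Syt7, a calcium sensor of exocytosis, fell with ampicillin from 7.16, 8.34 and 6.47 TPM to 3.33, 3.22 and 2.94 TPM (log2 -0.99 ± 0.14 SE, adjusted p = 0.00137, limma). Stx1a, a membrane protein of the fusion machinery, rose with tributyrin from 1.25, 1.09 and 1.01 TPM to 2.09, 3.52 and 2.76 TPM (0.82 ± 0.14, adjusted p = 0.00447). Rph3al and Rab3d, which bind secretory vesicles, fell with ampicillin and rose with tributyrin, while Vamp2 and Cplx2 fell with tributyrin. The Cplx2 fall was lost in 8 of 19 alternatives, among them those without vehicle replicate 3 or any 1 of the ampicillin and tributyrin libraries. These genes are also expressed outside endocrine cells. The processing enzymes Pcsk1, Cpe and Pam were not called in any of the 3 comparisons.

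A pair of receptors through which endocrine cells sense fatty acids fell with ampicillin and rose with tributyrin. Ffar4, a receptor of long-chain fatty acids, was at 19.7, 18.2 and 17.2 TPM with vehicle, 10.4, 11.9 and 9.92 TPM with ampicillin, and 21.2, 19.0 and 17.0 TPM with tributyrin. It fell by 0.73 (SE 0.095, adjusted p = 0.00114, limma) and rose by 0.77 ± 0.095 (adjusted p = 0.00137), each in all 20 alternatives. Ffar2, a receptor of short-chain fatty acids, was lower, at 2.0, 2.83 and 2.05, then 1.36, 1.69 and 1.28, then 2.33, 2.44 and 2.48 TPM. It fell by 0.43 (SE 0.12, adjusted p = 0.0324) and rose by 0.49 ± 0.12 (adjusted p = 0.0189). The fall was lost without vehicle replicate 2 or 3 or ampicillin replicate 1 or 3 and in the fit of only the 6 libraries compared, and the rise without ampicillin replicate 1 or 3 or tributyrin replicate 2 and after quantile normalization. Of the 24 genes of this list 5 passed the filter. With ampicillin 1 rose and 2 fell, beside 11.0% of all genes called higher and 10.2% lower. The rise was that of Slc5a1, the sodium-glucose cotransporter, by 0.32 (adjusted p = 0.00723), in all 20 alternatives. Ffar3 was at a mean of 0.124 TPM.

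**Figure D5:**
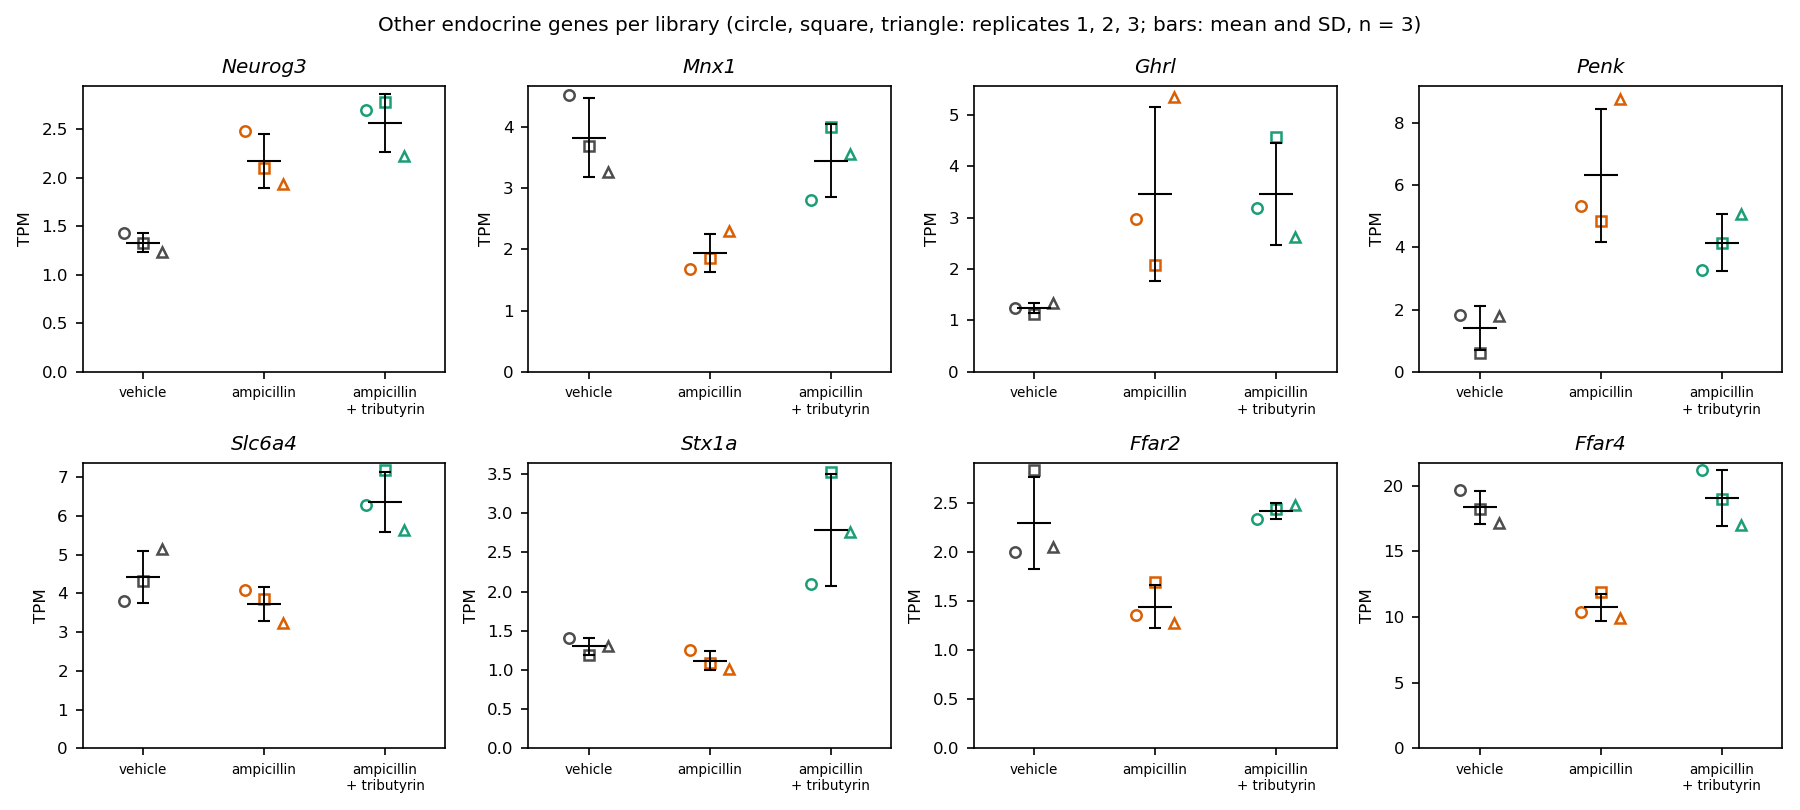
TPM of 8 further genes from the endocrine lists per library on linear axes from 0 (symbols are replicates 1 to 3, bars the mean and SD, n = 3). Slc6a4 and Stx1a are also expressed outside endocrine cells. Mnx1, Ffar2 and Ffar4 are lowest in the ampicillin group, Stx1a and Slc6a4 are highest in the tributyrin group, and Neurog3, Ghrl and Penk are lowest with vehicle.

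Receptors for the peptide hormones among the members were low in this epithelium. Of 21 receptors and peptide-degrading enzymes 5 passed the filter. With ampicillin 1 rose and 1 fell, beside 11.0% of all genes called higher and 10.2% lower. Rxfp4, the receptor of Insl5, had a mean of 0.122 TPM and Glp1r of 0.0562 TPM over the 9 libraries, and the secretin receptor Sctr was listed at 0 in all of them. Htr4, a receptor of serotonin, was higher, at a mean of 5.04 TPM. Its log2 difference between tributyrin and ampicillin was -0.30 ± 0.093 (SE, adjusted p = 0.0464, limma), a call lost in 13 of 20 alternatives. Sstr1, a somatostatin receptor, rose with ampicillin from 0.738, 0.699 and 0.611 TPM to 1.32, 1.30 and 1.02 TPM (log2 0.39 ± 0.097 SE, adjusted p = 0.0219, limma), lost without vehicle replicate 3 or ampicillin replicate 1 or 2. With a vehicle mean of 0.682 TPM, Sstr1 passed the filter on low values through the ampicillin groups only. Other somatostatin receptors, below the filter and so not tested, did not follow it. Sstr2, at a mean of 0.965 TPM, was at 1.2, 0.973 and 1.18 TPM with vehicle and 0.63, 0.311 and 0.43 TPM with ampicillin. Sstr5 had means of 0.272 TPM with vehicle and 0.108 TPM with ampicillin. The aminopeptidase Anpep fell by 1.61 (SE 0.41, adjusted p = 0.0233), with 13.5, 48.4 and 14.9 TPM with vehicle and 5.92 to 6.61 TPM with ampicillin. Vehicle replicate 2 held the highest Anpep value, and without it the log2 difference was -1.05 (adjusted p = 0.00277), whereas the call was lost without any 1 of the ampicillin libraries (adjusted p 0.063 to 0.0683).

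For each called member the tested genes of most similar course over the 9 libraries were found by the smallest root mean square difference of centred log2(TPM + 1). Insl5 was nearest to Edn1 (0.21), Dusp5 (0.24) and Il1rn (0.26), and Cck to Dusp5 (0.19), Fosl1 (0.23) and Dusp8 (0.24). Sst was nearest to Ralgapa2 and Rasd1 (both 0.11) and Dusp1 (0.13). Among these genes Dusp1, a phosphatase that acts on MAP kinases, was at 89.1 to 111 TPM with vehicle, 186 to 202 TPM with ampicillin and 220 to 241 TPM with tributyrin.

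Pyy was nearest to Adamts15 (0.17), Ceacam10 (0.19) and Rbp4 (0.23), and Sct to Pxdc1 and Rapgefl1 (both 0.12) and Lgr5 (0.15). Lgr5, the marker of crypt stem cells, was at 10.7, 8.92 and 10.3 TPM with vehicle, 5.39, 6.35 and 6.19 TPM with ampicillin, and 6.83, 5.62 and 4.71 TPM with tributyrin. Tph1 was nearest to Pdlim7 (0.082), Plppr2 (0.087) and Mboat2 (0.1), and Neurod1 to Pip5k1c (0.031), Grina (0.049) and Lamc1 (0.051). These values describe likeness of course over 9 libraries that fall into 3 groups.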

How the data were processed

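RNA of 9 caecal epithelial libraries was analysed, and the 7 chromatin and input samples were not analysed here. The values are TPM per gene as the authors deposited them. Tools named by the submitters' processing notes, with no role, are DESeq2 1.20.0 and Salmon 0.8.2, and the build is mm10. Index, annotation and strand setting: not given in the sources used here. The TPM of a library sum to between 999833 and 999866 TPM, so depth is unknown, no counting interval could be given and no count model was used. TPM is relative to the other transcripts of a library.

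Genes with a mean of at least 1 TPM over the 9 libraries (12155 of 24091) were fitted as log2(TPM + 1) in limma 3.58.1 (R 4.3.3) with 1 mean per group, a variance trend and 6 residual degrees of freedom, tested two-sided and adjusted by Benjamini-Hochberg over all genes tested. The fit was tested on simulated data. Ratios were compared by exact permutation tests in scipy 1.17.1 under Python 3.11.15, and figures were drawn in matplotlib 3.10.9. Of 24091 gene IDs, 24045 had an entry in a RefSeq table of GRCm38.p6, which gave the positions and upstream sequences.

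The members and lists were chosen with earlier results of these data known. All 10 members are named. Of the other lists, called genes (up to 6 by size per comparison) and up to 4 uncalled genes of highest mean may be named, in cell type lists also the 3 highest and those at 0 throughout, and the 3 genes nearest each called member. Alternatives changed the pseudocount, filter, scaling, block, variance trend, weights and libraries.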

Additional observations from a re-analysis of the deposited data

How the results depend on the processing

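The calls of Insl5, Cck, Sst, Pyy and Sct against vehicle were kept in every alternative that tested them, and a filter at a mean of 5 TPM left out Insl5, Tph1 and Neurod1. Over all member fold changes and alternatives, 558 values stayed on their side of the threshold in the same direction, 15 passed it newly, 9 lost it, all for Tph1 with ampicillin against vehicle, and 9 changed sign. The sign changes concerned small uncalled values, and the cause was not tested. Gcg with ampicillin against vehicle ran from -0.10 to 0.26 when 1 library was left out, and Chga from -0.09 to 0.09, with -0.0069 under array weights. With tributyrin against ampicillin, Insl5 ran from -0.045 to 0.21, with -0.037 after quantile normalization, and Sct from -0.11 to 0.029. In that comparison the genes called were 2819, 4271 with array weights and 1587 to 3011 when 1 library was left out, and the members called were 1, 4 with array weights (Tph1, Sst, Chga and Neurod1) and 1 to 3 when 1 library was left out. For tributyrin against vehicle, the genes called were 3444, and 2093 to 3786 when 1 library was left out, the lowest without tributyrin replicate 2. Over all tested genes, same-numbered libraries of different groups did not deviate together (r from -0.0498 to 0.108 over 9 pairs, against -0.117 to 0.0748 over 18 others). The replicate numbers were therefore not taken as pairs. The members themselves leaned 1 way by number. Replicate 3 was the lowest of its group for 6 of 10 members with vehicle, 7 with ampicillin and 9 with tributyrin, and this was not tested. With the replicate block, 2 members were called for tributyrin against ampicillin (Sst at adjusted p = 0.0495), 5 for ampicillin against vehicle, where Tph1 was at 0.055, and 6 for tributyrin against vehicle. For the 47 calls named or counted among the endocrine and mast cell lists, 25 held in all alternatives and 22 were lost in some. With Chgb alone as the denominator, an alternative chosen after seeing the data, the log2 ratios for ampicillin against vehicle were 1.57 for Insl5, 1.25 for Cck, 0.70 for Sst, -1.66 for Pyy and -0.82 for Sct. The lack of counts limits all values near or below 1 TPM, such as Insl5 with vehicle.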

Other observations

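Genes of the secretory lineage and the Notch pathway, which precede the endocrine genes in crypt progenitors, were taken as a further list. Of 12 tested, 3 rose with ampicillin (Hes6, Rgs2 and Jag1) and none fell, beside 11.0% and 10.2% of all genes. The Jag1 rise was lost in 9 of 19 alternatives, among them those without any 1 of the vehicle or ampicillin libraries. Atoh1, the factor that opens the secretory fate, was at 30.6, 28.9 and 23.6 TPM with vehicle, 26.2, 27.1 and 23.4 TPM with ampicillin, and 30.5, 27 and 20.0 TPM with tributyrin, and it was called in none of the 3 comparisons (limma). Hes6, a helix-loop-helix gene of differentiating cells, moved in both directions: it was at 58.8, 49.0 and 56.5 TPM with vehicle, 77.8, 78.4 and 84.1 TPM with ampicillin, and 55.7, 52.2 and 59.9 TPM with tributyrin. It rose with ampicillin by 0.54 ± 0.078 on the log2 scale (SE, adjusted p = 0.00177, limma) and fell with tributyrin by 0.51 (SE 0.078, adjusted p = 0.00317), each in all 20 alternatives. The ampicillin libraries did not overlap those of the other groups. Rgs2, a regulator of G protein signalling, rose with ampicillin by 0.52 ± 0.11 (adjusted p = 0.012).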
